A study of Mus musculus with 6 samples.

Results

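Macrophages from MC38 tumours of the Xkr8 knockout (KO) clone 2 were compared with macrophages from wild-type (WT) MC38 tumours by RNA sequencing. The comparison uses 2 mice on each side, chosen by their labels, which is 4 of the 6 libraries of the series, and it takes in all genes of the deposited table. MC38 is a mouse colon carcinoma line, and subcutaneous tumours were taken from C57BL6 mice at 16 days, when their macrophages were sorted by flow cytometry. No treatment was given. The labels name the knockouts by clone, so the knockout is taken to be in the tumour cells and the macrophages to be host cells. Clone 2 is 1 clone, so its other traits and the missing Xkr8 cannot be told apart. No label gives the sorting gate or the age and sex of the mice. The labels call the WT samples WTb without saying what the b stands for. The other 2 libraries, from macrophages of KO clone 1 tumours, share the fit and are used where clone 2 is set against clone 1.

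Xkr8 is a phospholipid scramblase that caspases switch on in dying cells, where it brings phosphatidylserine to the outer face of the plasma membrane. Macrophages bind exposed phosphatidylserine through receptors such as Mertk, Axl and the Tim proteins and engulf the dying cell, a process called efferocytosis. Tumour macrophages come largely from Ly6C-positive blood monocytes, and interferon-gamma made by T and NK cells is a main signal that turns on their GTPases, chemokines and antigen presentation. The comparison addresses how macrophages differ between tumours with and without this scramblase.

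One WT library stood apart, and results that rest on it are given with and without it. WT mouse 2 had a total of 20038047 estimated counts, of which the ribosomal precursor Rn45s took 24.6%, against 37090034 to 40022755 counts and 1.46% to 7.12% in the other 5 libraries. Its correlations with the others, on log2(CPM + 1), were 0.932 to 0.946, while each of the others reached at least 0.988 with its nearest library. Some abundant genes were also far apart between the WT mice. An example is B2m, the light chain of MHC class I, at 2725 CPM (counts scaled to the TMM-adjusted library size) in WT mouse 1 and 308 in WT mouse 2, against 4519 and 4384 in the clone 2 libraries. The macrophage markers Adgre1 and Csf1r were abundant in every library, at 528 to 966 and 1059 to 1633 CPM. Defining markers of neutrophils (Ly6g, S100a8) and epithelium (Epcam, Krt8, Krt18) were at or below 0.788 CPM in every library. Other genes of the epithelium list were higher, with Cdh1 at 10.5 to 43.1 and Tjp1 at 17.1 to 27.9 CPM. Fibroblast and matrix genes ranged widely, with Fap at 0.547 to 1.72, Pdgfra at 78.5 to 168 and Col3a1 at 1840 to 11300 CPM. Which cells this RNA came from was not tested.

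In edgeR's quasi-likelihood test over 15560 genes, 1 gene rose in clone 2 at an adjusted p under 0.05 (0.00643%) and 0 fell (0%). At an unadjusted p under 0.05, 796 genes (5.12%) were higher and 960 (6.17%) lower in clone 2. DESeq2 called 324 genes higher (2.08%) and 141 lower (0.906%). Both clone 2 libraries lay above both WT libraries for 4127 genes (26.5%) and below both for 3942 (25.3%). The median log2 fold change of all genes tested was -0.03, and the values were positive for 48.3% and negative for 51.7% of genes. These shares over all genes are the background for the counts given for each gene list below. On counts simulated for this comparison, the edgeR fit recovered 2 of 50 genes changed by 1 on the log2 scale, 36 of 50 changed by 2, 47 of 50 changed by 3 and 49 of 50 changed by 4. The changed genes were drawn from those with a mean of at least 5 CPM. Every simulated library had the same spread for a gene, while in the data WT mouse 2 stood apart, so recovery in the data may differ. An exact permutation test of 2 against 2 libraries cannot go below a two-sided p of 0.333 and was not used. P-values here measure the spread between mice within these groups. Except for Ly6c2, the adjusted p-values of edgeR on all libraries miss the threshold for the genes given below, so the other genes are described by their levels in each library.

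**Figure D1:**
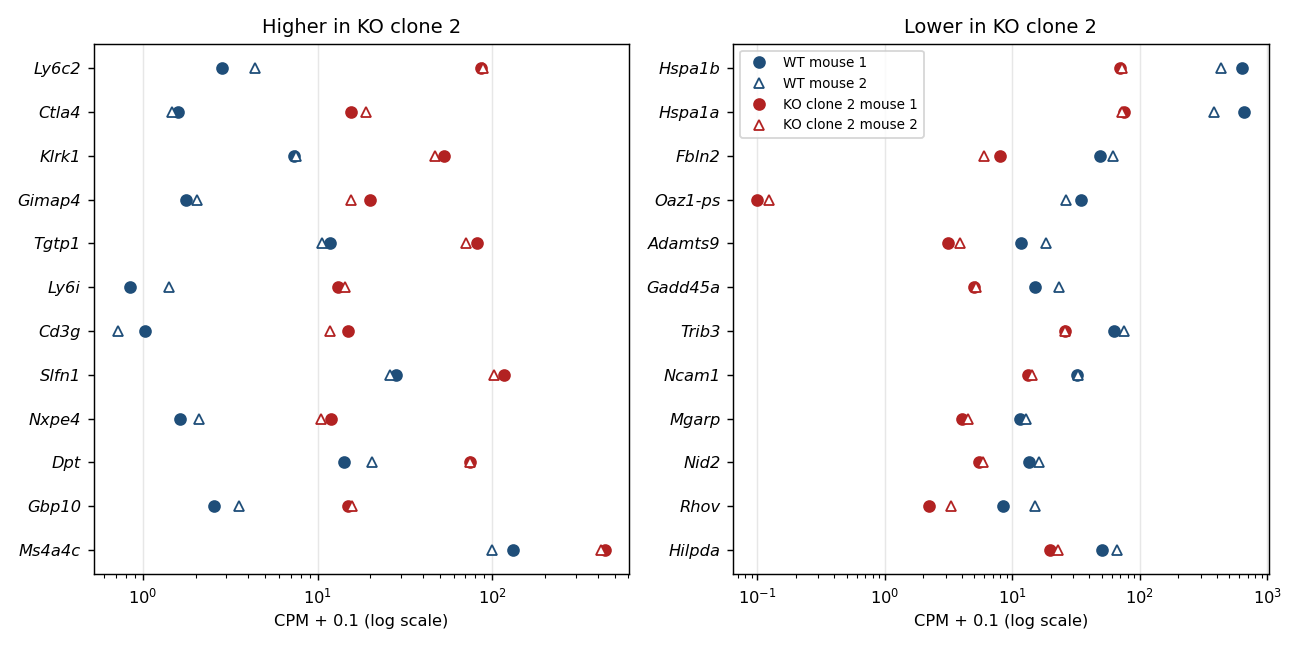
CPM plus 0.1, on a log axis, of the 12 genes with the smallest p in each direction, in each of the 2 WT (blue) and 2 clone 2 (red) libraries. The red and blue points do not overlap for any of the 24 genes, which the choice of genes required, and for Ly6c2 the clone 2 libraries sit at 85.5 and 88.3 CPM against 2.72 and 4.27.

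Ly6c2 was the gene that passed. It encodes a form of the Ly6C antigen, the surface marker of inflammatory monocytes, and lies on chromosome 15 (GRCm38, chr15:75108158-75111970, minus strand). Ly6c2 stood at 2.72 and 4.27 CPM in the WT libraries and at 85.5 and 88.3 CPM in the clone 2 libraries, a log2 fold change of 4.66 ± 0.30 (SE) with an adjusted p of 0.0342. Both WT libraries were low and both clone 2 libraries high, with a gap far wider than the spread in either group. Without WT mouse 2 the log2 fold change of Ly6c2 was 4.97. Its adjusted p rose to 0.133 with the mouse number as a block, to 0.0628 when genes under 5 CPM were left out, and to values between 0.126 and 0.331 when a clone 1 or clone 2 library was left out, so the call depends on those choices. Ly6c1, a near-identical neighbour with which reads may be shared, stood at 16.2 and 12.5 CPM in WT and at 40.5 and 40.3 CPM in clone 2. The sum of both genes was 19 and 16.8 CPM in WT against 126 and 129 in clone 2.

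Of 18 monocyte genes tested, Ly6c2 among them, 15 had a positive log2 fold change, 11 had both clone 2 libraries above both WT libraries, 9 were higher at an unadjusted p under 0.05 and 7 were called higher by DESeq2, with a median of 0.81. Ms4a4c, a membrane protein of the MS4A family, was at 130 and 100 CPM in WT and 441 and 418 in clone 2 (1.90 ± 0.23). Plac8, expressed in monocytes and other leukocytes, was at 9.71 and 23.3 against 82.6 and 72.4 CPM (2.24 ± 0.42). The WT mice differed more from each other for Plac8 than the clone 2 mice did, yet their range stayed clear of clone 2. Ccr2, the chemokine receptor that brings monocytes into tissue, was at 277 and 40.6 CPM in WT and 594 and 717 in clone 2. Its log2 fold change was 2.04 with WT mouse 2 and 1.22 without it, so its size moved with that library. Vcan and Fn1, matrix genes of monocytes, showed no separation, at -0.10 ± 0.32 and -0.48 ± 0.33. Ly6i and Ly6a, related genes of the same cluster that interferon induces, were at 0.747 and 1.31 against 13 and 14.2 CPM and at 184 and 159 against 603 and 566 CPM.

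Genes known from T cells and NK cells were higher in the clone 2 libraries. In these bulk samples, a larger number of cells of a type and more RNA per cell cannot be told apart. Of 27 T cell genes tested, 23 had a positive log2 fold change, 21 lay above both WT libraries in clone 2 and 3 below, 17 were higher at an unadjusted p under 0.05, 0 passed edgeR's adjusted test and 15 passed DESeq2, with a median of 1.92. Ctla4, the inhibitory receptor of T cells, stood at 1.49 and 1.38 CPM in WT and 15.4 and 18.8 in clone 2 (3.56 ± 0.29, adjusted p = 0.0501). Pdcd1, which encodes PD-1, was at 0.9 and 0.894 against 9.38 and 8.34 CPM (3.30 ± 0.31). For both checkpoint receptors the WT mice were near each other and clone 2 stood far above them. Cd8a, the CD8 co-receptor, was at 2.35 and 4.06 against 21.7 and 14 CPM, and Cd4 at 1.8 and 2.61 against 6.56 and 5.39 CPM.

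The chains of the T cell receptor complex differed in their separation. Cd3g was at 0.922 and 0.619 CPM in WT and 14.9 and 11.7 in clone 2 (4.05 ± 0.39). Cd3d was at 4.06 and 4.68 against 7.53 and 5.46 CPM (0.58 ± 0.31), and Cd3e at 0.022 and 1.86 against 1.12 and 0.553 CPM. Cd3g therefore stood well clear of WT, Cd3d slightly above it, and Cd3e overlapped. Without Cd3g, the sum of Cd3d and Cd3e was 4.09 and 6.54 CPM in WT and 8.65 and 6.01 in clone 2, which overlap. Genes of naive, memory and regulatory T cells were not higher. Il7r, the interleukin-7 receptor, was at 57.8 and 42.6 CPM in WT and 30.4 and 29.9 in clone 2 (-0.74 ± 0.30). Foxp3, the factor of regulatory T cells, was at 0.879 and 2.27 against 0.738 and 0.625 CPM, and Lef1 at 3.89 and 6.88 against 3.74 and 3.49 CPM.

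The log2 fold change was positive for all 22 tested NK cell and cytotoxic genes, and their median was 2.55. Both clone 2 libraries were above both WT libraries for 21 of them, 19 were higher at an unadjusted p under 0.05, 15 were called by DESeq2 and 0 passed edgeR's adjusted test. Klrk1 encodes the activating receptor NKG2D. It stood at 7.25 and 7.43 CPM in WT and 52.9 and 47.1 in clone 2 (2.77 ± 0.24, adjusted p = 0.0501). Klrd1, the CD94 subunit of NK receptors, was at 0.857 and 0.482 against 10 and 6.95 CPM (3.58 ± 0.43), and Cd226 at 0.483 and 0.138 against 7.53 and 4.54 CPM. Effector genes were low in WT and higher in clone 2. Gzmb, a granzyme, was at 2.33 and 4.47 against 21.4 and 20.3 CPM, and Fasl, the death ligand, at 0.132 and 0.206 against 3.94 and 2.6 CPM. Ifng, which encodes interferon-gamma, was at 0.637 and 1.93 CPM in WT and 7.96 and 3.75 in clone 2 (2.29 ± 0.63). The summed level of the NK list was 29.4 and 59.3 CPM in WT and 255 and 215 CPM in clone 2, and that of the T cell list 95.5 and 116 against 223 and 195 CPM. Ncr1, a marker of NK cells, was at 0.132 and 0 CPM in WT and 1.48 and 2.31 CPM in clone 2.

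The GIMAP genes, GTPases of lymphocyte survival, lie in 1 cluster on chromosome 6. Each of the 8 tested members was positive and had both clone 2 libraries above WT, 7 were higher at an unadjusted p under 0.05 and 6 by DESeq2, with a median of 2.40. Gimap4 (chr6:48684549-48692060, plus strand) was at 1.67 and 1.93 CPM in WT and 19.9 and 15.5 in clone 2 (3.31 ± 0.30, adjusted p = 0.0501). Gimap6 was at 2.42 and 1.86 against 12.1 and 10.8 CPM. Gimap1 stood nearer to WT, at 1.47 and 3.51 against 4.17 and 3.68 CPM (0.70 ± 0.46).

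The GTPases that interferon-gamma induces, which act against intracellular pathogens in macrophages, were higher in clone 2. Each of the 18 tested members was positive, with both clone 2 libraries above both WT libraries. Of these, 16 were higher at an unadjusted p under 0.05, 13 by DESeq2 and 0 by edgeR's adjusted test, with a median of 1.40. The median was 1.51 without WT mouse 2, where 15 members passed edgeR's test as higher (0.908% of all genes did), and 1.20 without WT mouse 1. Tgtp1 was at 11.6 and 10.5 CPM in WT and 81.9 and 70.2 in clone 2 (2.78 ± 0.25, adjusted p = 0.0501). Its near-identical copy Tgtp2 was at 91.3 and 61.6 against 299 and 254 CPM, and the sum of both was 103 and 72.2 against 381 and 324 CPM. Clone 2 was above WT for each gene, which the choice of Tgtp1 required, and for their sum. Iigp1 was at 135 and 100 against 515 and 427 CPM. Among the guanylate-binding proteins, Gbp10 was at 2.46 and 3.44 against 14.7 and 15.5 CPM (2.38 ± 0.29), and the far more abundant Gbp2 at 435 and 603 against 1215 and 1195 CPM (1.21 ± 0.26). Gbp7 and Irgm1 were at 173 and 128 against 453 and 428 CPM and at 157 and 137 against 408 and 355 CPM.

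**Figure D2:**
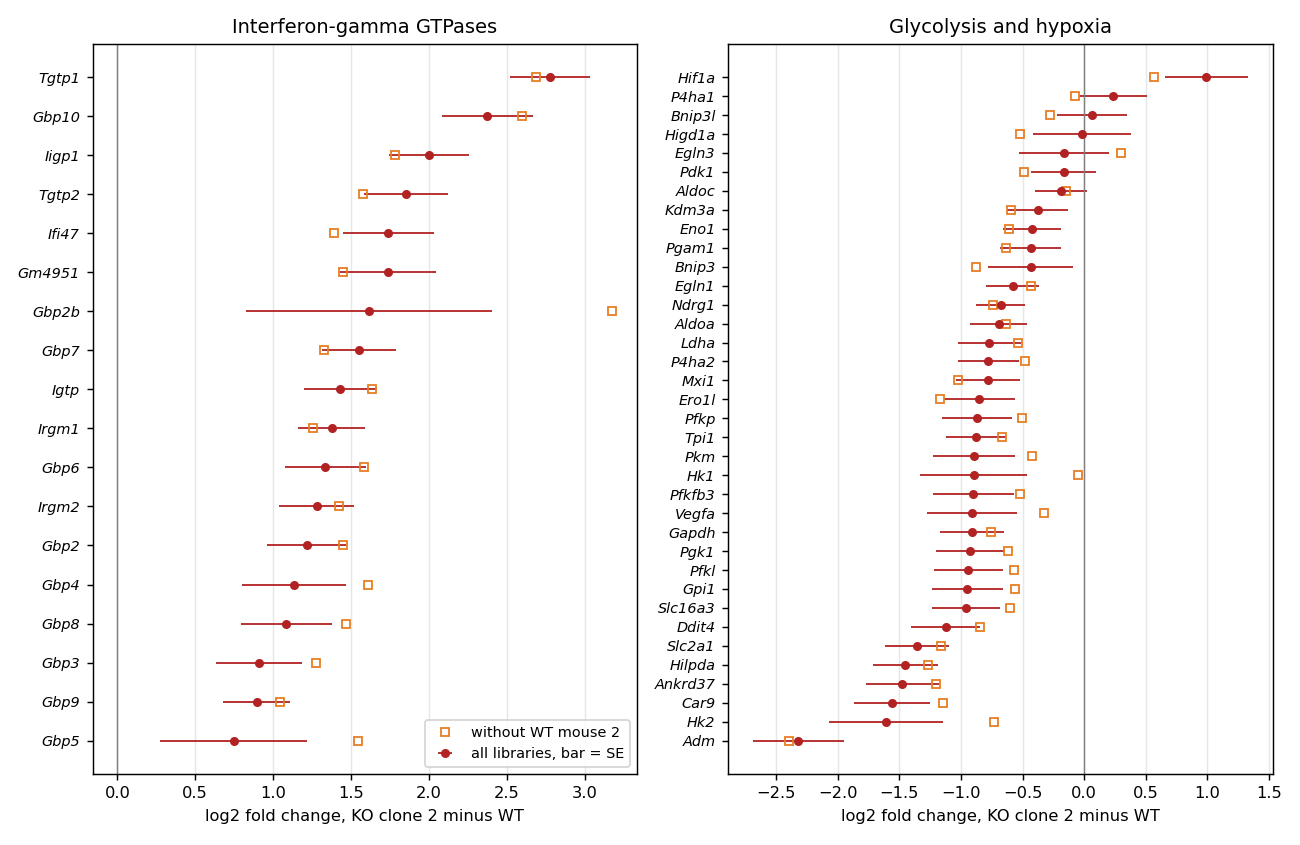
Log2 fold change, clone 2 minus WT, of the tested interferon-gamma GTPases (left) and glycolysis and hypoxia genes (right), with bars for the SE and open squares for the value without WT mouse 2. All 18 GTPases lie above 0 with and without that library, and 33 of the 36 glycolysis and hypoxia genes lie below 0 with all libraries.

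The promoters of these GTPases are shown because their genes stood together. The window is the 250 bases before the RefSeq start (GRCm38.p6), and 11 of the 18 genes have one in the RefSeq table. Interferon-stimulated response elements (ISRE, searched on both strands as GAAA, then 2 bases of any kind, then GAAA) occurred in 10 of these 11 windows, against 3.26% of the windows of 11579 tested genes. Gamma-activated sites (GAS, searched as TTCNNNGAA, which reads the same on both strands) occurred in 6 of 11, against 7.31%. A match describes letters in the window and not a bound site. The windows of Tgtp1 (chr11:48992247-48992496, minus strand) and Gbp7 (chr3:142530086-142530335, plus strand) are printed below from 5′ to 3′, with each ISRE and GAS match in capitals.
Tgtp1: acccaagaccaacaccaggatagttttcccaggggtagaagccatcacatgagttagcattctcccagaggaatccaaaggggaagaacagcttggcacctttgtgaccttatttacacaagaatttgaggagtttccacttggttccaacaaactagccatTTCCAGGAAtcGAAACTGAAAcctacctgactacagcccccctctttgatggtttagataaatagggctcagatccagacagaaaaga
Gbp7: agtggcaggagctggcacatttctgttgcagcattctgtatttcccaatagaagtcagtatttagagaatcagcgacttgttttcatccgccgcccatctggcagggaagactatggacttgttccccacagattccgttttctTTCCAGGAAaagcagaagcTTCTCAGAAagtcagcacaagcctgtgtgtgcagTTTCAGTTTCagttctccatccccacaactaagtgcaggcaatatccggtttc
In Tgtp1 the ISRE begins 77 bases and the GAS 88 bases before the start. In Gbp7 the ISRE begins 53 bases and 2 GAS matches begin 106 and 87 bases before the start. No match in either gene overlaps another.

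Genes of the type I interferon response were also higher in clone 2. Of 45 tested, 42 had a positive log2 fold change, 38 had both clone 2 libraries above WT, 30 were higher at an unadjusted p under 0.05 and 22 by DESeq2, with a median of 0.98. The summed level of the list was 4563 and 5661 CPM in WT and 10168 and 8964 in clone 2. ISRE matches occurred in 17 of the 33 of these genes with a window. Slfn1, a member of the Schlafen family, was at 27.8 and 25.8 CPM in WT and 117 and 102 in clone 2 (2.02 ± 0.22, adjusted p = 0.0794). Ifi44 was at 23.2 and 18.6 against 109 and 86 CPM (2.21 ± 0.33), and Ifi205, a nucleic acid sensor of the HIN-200 family, at 30 and 13.6 against 119 and 109 CPM (2.38 ± 0.38). These genes had no overlap between groups, which the choice of Slfn1 required. Other well known members were nearer to WT. Ifit1 was at 162 and 223 against 296 and 256 CPM (0.52 ± 0.24), which is above WT by a small margin. Isg15, a ubiquitin-like protein, was at 25.1 and 99.1 CPM in WT and 47.4 and 44.1 in clone 2, so that clone 2 lay between the WT mice. The log2 fold change of Isg15 was -0.44 with WT mouse 2 and 0.84 without it. Bst2, the tetherin gene, behaved alike, at 146 and 532 against 245 and 241 CPM, with -0.48 and 0.71.

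Several chemokines and soluble factors that interferon-gamma induces also stood higher in clone 2. Cxcl9, which draws in T cells through CXCR3, was at 152 and 141 CPM in WT and 379 and 430 in clone 2 (1.47 ± 0.25, adjusted p = 0.144). Cxcl10, a ligand of the same receptor, was at 122 and 119 against 265 and 231 CPM (1.04 ± 0.20). The WT mice were close to each other for both ligands, and clone 2 was above them. Of 25 chemokine genes tested, 19 had a positive log2 fold change, 10 were higher and 2 lower at an unadjusted p under 0.05, and 7 were called higher and 2 lower by DESeq2. Ccl22, a ligand of CCR4, was at 0.527 and 0.413 against 10.6 and 5.63 CPM (4.06 ± 0.45). Cxcl14 and Pf4 went the other way, at 42.3 and 75.8 against 23 and 19 CPM and at 62.9 and 79.5 against 39.8 and 35.7 CPM. The complement factor Cfb was at 115 and 181 CPM in WT and 577 and 503 in clone 2 (1.87 ± 0.29). Upp1, a uridine phosphorylase, was at 10.4 and 9.22 against 35.6 and 35.3 CPM (1.85 ± 0.23). Among RNA sensors, Ifih1 (MDA5) was at 102 and 77.4 against 227 and 193 CPM, and Ddx58 (RIG-I) at 159 and 122 against 286 and 266 CPM. Tnfsf10, the death ligand TRAIL, was at 13 and 10.7 against 45.5 and 35.6 CPM (1.77 ± 0.29), and the inflammasome protease Casp1 at 80.6 and 49.7 against 148 and 138 CPM. Nos2, the inducible nitric oxide synthase, and Cd274, which encodes PD-L1, are interferon-gamma targets that did not separate. Nos2 was at 56.6 and 213 CPM in WT and 61 and 65.2 in clone 2, and Cd274 at 105 and 274 against 116 and 121 CPM. Clone 2 lay within the range of the WT mice for both.

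The MHC class II genes rested on which WT library was used. Class II molecules present peptides to CD4 T cells. H2-Ab1 was at 708 CPM in WT mouse 1, 2206 in WT mouse 2, and 2712 and 2660 in clone 2 (0.88 ± 0.51). H2-Aa was at 724 and 2332 against 3013 and 2895 CPM, and its regulator Ciita at 38 and 102 against 139 and 134 CPM. Clone 2 was above both WT mice for these 3 genes, and far above WT mouse 1. Cd74, the invariant chain, was at 1353 and 7721 CPM in WT and 4461 and 4353 in clone 2, and H2-Eb1 at 590 and 2950 against 2082 and 2139 CPM. For these, WT mouse 2 was the highest library. Of 15 class II genes tested, 11 had a positive log2 fold change, 8 lay above both WT libraries, and 4 were higher at an unadjusted p under 0.05, with a median of 0.49. Without WT mouse 2 all 15 were positive (46.7% of all genes were), and the median was 0.94. The log2 fold changes were then 1.90 for H2-Ab1, 2.01 for H2-Aa, 1.82 for H2-Eb1 and 1.68 for Cd74, against -0.04 for Cd74 with that library. Which WT library is nearer to the usual level was not tested.

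MHC class I genes also moved with the choice of WT library. Of 19 tested, 14 had a positive log2 fold change, 8 lay above both WT libraries and 2 were higher at an unadjusted p under 0.05. The median was 0.24, with 0.69 without WT mouse 2 and -0.09 without WT mouse 1. H2-K1, a classical heavy chain, was at 1357 and 1782 against 2522 and 2470 CPM (0.67 ± 0.25). H2-T22, a nonclassical one, was at 52.3 and 39.3 against 111 and 111 CPM (1.27 ± 0.22). For both genes the WT mice were below clone 2. H2-Q6 could not be read, since it ranged from 4.52 to 164 CPM between the WT mice and shares sequence with H2-Q7.

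Macrophage identity genes went both ways. Of 20 tested, 11 had a positive log2 fold change, where 48.3% of all genes did. Of the 20, 8 lay above both WT libraries (26.5% of all genes) and 1 below (25.3%). At an unadjusted p under 0.05, 3 were higher (5.12% of all genes), and 2 were called higher by DESeq2 (2.08%). The median was 0.14, with 0.28 without WT mouse 2. Adgre1, which encodes F4/80, was at 667 and 528 CPM in WT and 966 and 946 in clone 2 (0.68 ± 0.24). Csf1r, the receptor for the growth factor CSF1, was at 1114 and 1633 against 1302 and 1283 CPM (-0.09 ± 0.27). F4/80 was thus above WT in both clone 2 mice and Csf1r within the WT range. Lysozyme Lyz2 was at 1998 and 1608 against 3336 and 3217 CPM (0.86 ± 0.25). The Fc receptors for IgG were higher, with Fcgr1 at 267 and 284 against 461 and 457 CPM and Fcgr4 at 151 and 101 against 490 and 465 CPM (1.92 ± 0.28). Of 14 genes of the Fc receptor list, 13 had a positive log2 fold change. The inhibitory receptor Fcgr2b was at 342 and 245 against 515 and 570 CPM. Of 24 alternative activation genes tested, 19 had a positive log2 fold change, 10 had both clone 2 libraries above WT and 2 below, 8 were higher and 2 lower at an unadjusted p under 0.05, and 4 were called higher by DESeq2, with a median of 0.91 (0.34 without WT mouse 2). The groups overlapped for Arg1, Mrc1, Tnf and Tgfb1. Arg1, an arginase, was at 295 and 365 against 362 and 401 CPM, Mrc1, the mannose receptor, at 438 and 224 against 422 and 301 CPM, Tnf at 63.9 and 44.2 against 58.5 and 50.3 CPM, and Tgfb1 at 56.9 and 109 against 58.3 and 58.3 CPM. Il10 was at 7.23 and 2.96 against 11.5 and 9.62 CPM (1.03 ± 0.43). Mgl2 and Chil3, lectins linked to alternative activation and monocytes, were at 4.5 and 3.71 against 19.9 and 12 CPM and at 3.01 and 1.86 against 14.5 and 16.3 CPM.

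The receptors that recognise phosphatidylserine, the lipid that Xkr8 exposes, showed no shared direction. Of 32 efferocytosis genes tested, 14 had a positive log2 fold change, where 48.3% of all genes did, and the median was -0.07. Both clone 2 libraries lay above WT for 10 (26.5% of all genes) and below for 4 (25.3%). At an unadjusted p under 0.05, 3 were higher (5.12% of all genes) and 2 lower (6.17%). DESeq2 called 1 higher (2.08% of all genes). Mertk was at 70 and 75.9 CPM in WT and 111 and 93.3 in clone 2 (0.48 ± 0.25). Axl was at 685 and 1269 against 828 and 847 CPM (-0.22 ± 0.32), and the lipid receptor Trem2 at 111 and 253 against 135 and 136 CPM. Mertk was slightly above WT, while Axl and Trem2 lay between the WT mice. Havcr2, which encodes Tim-3, was at 102 and 79.2 against 169 and 170 CPM (0.91 ± 0.22), and Thbs1, a bridging protein, at 142 and 267 against 399 and 561 CPM (1.23 ± 0.35). Stab1 and Lrp1, engulfment receptors, were lower, at 663 and 1057 against 435 and 411 CPM and at 1104 and 2769 against 709 and 723 CPM. Xkr8 itself, taken to be targeted in the tumour cells and so no check of the labels here, was at 6.9 and 6.05 against 6.97 and 6.16 CPM (0.02 ± 0.26).

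Dendritic cell, neutrophil and endothelial genes were read as markers of other cells in the sort. Of 19 dendritic cell genes, 13 had a positive and 6 a negative log2 fold change. Both clone 2 libraries were above WT for 13 (26.5% of all genes) and below for 1 (25.3%). At an unadjusted p under 0.05, 9 were higher (5.12% of all genes) and 0 lower. The groups overlapped for Clec9a, at 2.33 and 5.23 against 3.15 and 2.72 CPM, and for Batf3, at 3.45 and 15.2 against 4.73 and 5.29 CPM. Ccr7, the receptor of migrating dendritic cells, was at 0.988 and 0.55 against 6.49 and 5.58 CPM (2.90 ± 0.39), and Dpp4 at 2.75 and 2.55 against 9.18 and 8.2 CPM. Of 12 neutrophil genes tested, 3 were called higher by DESeq2 (2.08% of all genes). At an unadjusted p under 0.05, 8 were higher (5.12% of all genes) and 1 lower (6.17%). The lower one was the chemokine receptor Cxcr2, at 11.9 and 12.9 against 7.86 and 6.08 CPM (-0.83 ± 0.26). Csf3r, the G-CSF receptor, was at 26.3 and 25.9 against 61.6 and 60.7 CPM, yet the defining gene Ly6g did not exceed 0.788 CPM. The summed level of the neutrophil list was 111 and 121 CPM in WT and 188 and 215 in clone 2. Mmp9 alone held 58.7 and 70.2 against 98.9 and 118 CPM of that sum. The summed level of the dendritic cell list was 453 and 1011 against 637 and 604 CPM. Pecam1, an adhesion molecule of endothelium and leukocytes, was at 13 and 14.9 against 37.8 and 41.6 CPM (1.51 ± 0.24), while Cdh5, which defines endothelium, was at 0.944 and 1.93 against 1.27 and 0.938 CPM. The part of these cell types in the differences above was not tested.

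**Figure D3:**
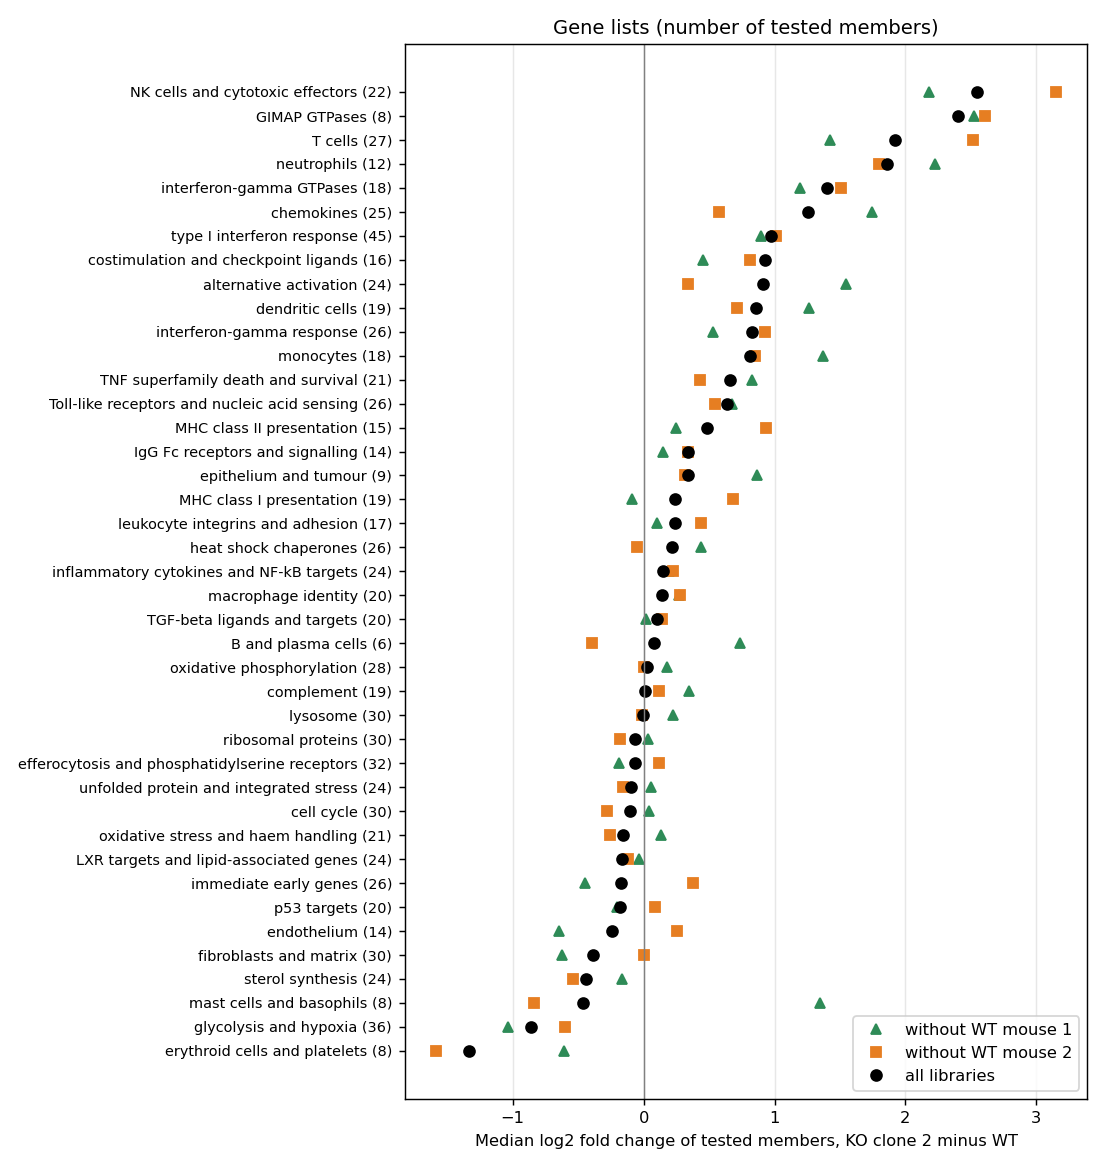
Median log2 fold change, clone 2 minus WT, of the tested members of each of 41 gene lists (number tested in brackets), with all libraries (black circles), without WT mouse 2 (orange squares) and without WT mouse 1 (green triangles). NK, GIMAP and T cell lists lie farthest to the right, at 2.55, 2.40 and 1.92, the glycolysis and hypoxia list lies at -0.86, and 7 medians change sign without WT mouse 2.

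The lowest p among genes lower in clone 2 belonged to the inducible HSP70 pair, chaperones that heat shock factor HSF1 turns on under proteotoxic stress. Hspa1b was at 633 and 434 CPM in WT and 69.7 and 72.6 in clone 2, a log2 fold change of -2.91 ± 0.29 with an adjusted p of 0.0524. Hspa1a was at 662 and 384 against 74.9 and 72.9 CPM (-2.82 ± 0.31, adjusted p = 0.0794). Without WT mouse 2 the log2 fold changes of Hspa1b and Hspa1a were -3.17 and -3.18. The coding genes are near copies and lie next to each other on chromosome 17 (Hspa1a at chr17:34969190-34972156 and Hspa1b at chr17:34956436-34959238, both on the minus strand), so reads may be shared. Their sum was 1295 and 819 CPM in WT and 145 and 146 in clone 2, so the difference holds for the pair. Of 26 heat shock chaperones tested, 18 had a positive log2 fold change, where 48.3% of all genes did. The median was 0.22 (-0.05 without WT mouse 2, where 10 of the 26 were positive). At an unadjusted p under 0.05, 2 were higher (5.12% of all genes) and 4 lower (6.17%). DESeq2 called 0 higher (2.08% of all genes) and 2 lower (0.906%). Both clone 2 libraries were above WT for 9 of the 26 (26.5% of all genes) and below for 7 (25.3%). Hspb1, a small heat shock protein, was at 9.8 and 2.75 against 1.78 and 1.66 CPM (-1.89 ± 0.59). Bag3, a co-chaperone, was at 37.1 and 76.6 against 29.6 and 32.1 CPM (-0.88 ± 0.35). The constitutive Hspa8 was at 3867 and 3331 against 4381 and 4467 CPM, Hsp90aa1 at 1268 and 738 against 1159 and 1201 CPM, and the HSF1 target Dnajb1 at 98.3 and 62.3 against 89 and 95.8 CPM. None of these 3 was lower in clone 2 than in both WT mice.

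The promoters of the pair are printed because the genes stood low together. Heat shock elements (HSE, searched as GAANNTTC, which reads the same on both strands) occurred in 6 of 20 chaperone windows and in 6.23% of all 11579. The windows, from RefSeq on GRCm38.p6 (Hspa1a at chr17:34972157-34972406 and Hspa1b at chr17:34959239-34959488, minus strand), run from 5′ to 3′ with the HSE match in capitals.
Hspa1a: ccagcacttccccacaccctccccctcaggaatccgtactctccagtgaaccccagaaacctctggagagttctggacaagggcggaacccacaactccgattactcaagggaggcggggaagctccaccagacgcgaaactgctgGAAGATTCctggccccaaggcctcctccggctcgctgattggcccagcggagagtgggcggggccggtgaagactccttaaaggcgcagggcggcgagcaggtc
Hspa1b: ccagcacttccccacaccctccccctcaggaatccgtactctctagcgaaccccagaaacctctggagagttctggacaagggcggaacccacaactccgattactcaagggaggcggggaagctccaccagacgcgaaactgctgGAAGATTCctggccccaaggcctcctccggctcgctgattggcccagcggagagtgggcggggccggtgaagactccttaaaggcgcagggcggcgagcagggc
The windows agree at 247 of 250 positions (98.8%), and in both the match begins 104 bases before the start.

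Glycolysis and hypoxia genes were lower in the clone 2 macrophages. Of 36 tested, 3 had a positive log2 fold change, 28 had both clone 2 libraries below both WT libraries and 1 above, 24 were lower and 1 higher at an unadjusted p under 0.05, 9 were called lower by DESeq2 and 0 by edgeR's adjusted test. The median was -0.86, with -0.60 without WT mouse 2 and -1.04 without WT mouse 1. Without WT mouse 2, 2 of the 36 were positive, where 46.7% of all genes were. Hilpda, a lipid droplet protein that hypoxia induces, was at 50.5 and 66 CPM in WT and 19.7 and 22.9 in clone 2 (-1.45 ± 0.26, adjusted p = 0.155). Adm, the vasodilator adrenomedullin, was at 7.12 and 6.54 against 1.07 and 1.66 CPM (-2.32 ± 0.37). Car9, the carbonic anhydrase marker of hypoxia, was at 17.9 and 30.5 against 8.06 and 8.32 CPM (-1.56 ± 0.31). All 3 are known targets of hypoxia-inducible factor, and clone 2 was below WT for each, which the choice of Hilpda required. The glucose transporter Slc2a1 was at 317 and 421 against 127 and 161 CPM (-1.36 ± 0.26). Among glycolytic enzymes, Gapdh was at 2933 and 3702 against 1612 and 1916 CPM (-0.91 ± 0.26), and Hk2, a hexokinase, at 277 and 759 against 167 and 173 CPM. The log2 fold change of Hk2 was -1.61 with WT mouse 2 and -0.73 without it. Vegfa, the angiogenic factor, was at 315 and 644 against 222 and 289 CPM. Hif1a, which encodes the oxygen-regulated subunit of the factor, was higher, at 264 and 134 against 401 and 392 CPM (0.99 ± 0.34). The summed level of the list was 18735 and 24393 CPM in WT, 12247 and 13318 in clone 2, and 18550 and 18095 in clone 1. The core of the hypoxia response element (ACGTG on either strand) occurred in 21 of 33 of these windows and in 24.0% of all 11579. OXPHOS genes, which serve respiration, showed no such shift, with 16 of 28 positive and a median of 0.03.

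Among the other low values were genes of the matrix and of stress responses. Fbln2, an elastic fibre protein, was at 48.2 and 61.4 CPM in WT and 7.83 and 5.89 in clone 2 (-3.00 ± 0.34, adjusted p = 0.0794). Adamts9, a matrix protease, was at 11.7 and 18.2 against 3.03 and 3.75 CPM (-2.13 ± 0.32), and Nid2, a basement membrane protein, at 13.4 and 16.1 against 5.42 and 5.77 CPM (-1.40 ± 0.25). Mfap4, a microfibril protein, was at 4.33 and 6.26 against 0.966 and 1.13 CPM. Clone 2 was below WT for all 4, which the choice of Fbln2, Adamts9 and Nid2 required. Matrix genes did not share a direction. Dpt, dermatopontin, was higher, at 14 and 20.4 against 74.7 and 74.7 CPM (2.12 ± 0.26, adjusted p = 0.0954), as was the collagen crosslinking enzyme Lox, at 14.4 and 5.85 against 65.9 and 64.7 CPM (2.67 ± 0.53). Of 30 fibroblast and matrix genes tested, 8 had a positive log2 fold change, 3 were higher and 6 lower at an unadjusted p under 0.05, and the median was -0.39, with 0.01 without WT mouse 2. The summed level of this list was 9713 CPM in WT mouse 1, 22050 in WT mouse 2, and 9652 and 10809 in clone 2. The part of fibroblast RNA in these values was not tested.

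Gadd45a and Trib3 are stress response genes of the p53 and integrated stress pathways. Gadd45a was at 15 and 23.2 CPM in WT and 4.86 and 5.12 in clone 2 (-1.93 ± 0.29), and Trib3 at 62.6 and 74.4 against 25.8 and 25.7 CPM (-1.41 ± 0.23). Of 20 p53 targets, 4 were higher and 6 lower at an unadjusted p under 0.05, against 5.12% and 6.17% of all genes. Of these targets, 7 lay above and 8 below both WT libraries, against 26.5% and 25.3% of all genes. Their median was -0.18 (0.08 without WT mouse 2). Of 24 genes of the unfolded protein and integrated stress response, 0 were higher and 3 lower at that p. Both clone 2 libraries lay above WT for 3 of the 24 and below for 9, and the median was -0.10 (-0.15 without WT mouse 2). Mgarp, a mitochondrial protein, was at 11.4 and 12.7 against 3.92 and 4.4 CPM. Nxpe4 was higher, at 1.54 and 2 against 11.8 and 10.4 CPM (2.67 ± 0.30). The processed pseudogene Oaz1-ps was at 34.4 and 26 CPM in WT and 0 and 0.024 in clone 2. Its parent gene Oaz1, with which reads may be shared, was at 274 and 414 against 307 and 341 CPM, and their sum was 308 and 440 against 307 and 341 CPM, so the low value of Oaz1-ps cannot be told apart from a different split of reads.

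Lipid-associated and iron-handling genes gave smaller differences. Gpnmb and Fabp5, genes of lipid-associated macrophages, were at 66.4 and 72 against 32.6 and 34.8 CPM (-1.04 ± 0.20) and at 91.8 and 84.5 against 48.8 and 49.9 CPM (-0.84 ± 0.19). Spp1, osteopontin, was at 460 and 264 against 130 and 179 CPM (-1.23 ± 0.43). All 3 were below both WT mice in clone 2. Of the 24 genes of that list, 10 had a positive log2 fold change, 2 were higher and 6 lower at an unadjusted p under 0.05. Both clone 2 libraries lay above both WT libraries for 7 of the 24 and below both for 9. Apoe, the most abundant member, was among those above, at 3030 and 5460 against 6640 and 6470 CPM. The list thus had no shared direction. The metallothioneins Mt1 and Mt2, which bind zinc and copper, were at 120 and 95.2 against 51.9 and 57.2 CPM and at 71.1 and 51.3 against 30.9 and 34.2 CPM. Hmox1, haem oxygenase, was at 266 and 238 against 155 and 129 CPM (-0.82 ± 0.31). Sterol synthesis genes had a median of -0.44 over 24 genes. Of the 24, 2 were lower at an unadjusted p under 0.05 (6.17% of all genes) and 0 were called by edgeR's adjusted test or DESeq2. Both clone 2 libraries were below WT for 13 of the 24 (25.3% of all genes) and above for 0 (26.5%). The sterol median was -0.54 with 0 of 24 positive without WT mouse 2, and -0.17 with 10 of 24 positive without WT mouse 1. The median of the lysosome list was -0.01 with all libraries and -0.01 without WT mouse 2, with 0.22 without WT mouse 1. The ribosomal protein list had a median of -0.06 with 13 of 30 positive, and -0.18 with 1 of 30 positive without WT mouse 2. The cell cycle list had a median of -0.10 with 9 of 30 positive, and -0.28 with 0 of 30 positive without that library. Clone 2 was below both WT libraries for 11 of 30 ribosomal and 13 of 30 cell cycle genes, against 25.3% of all genes. It was above both for 0 genes of either list, against 26.5% of all genes. Without WT mouse 1 the medians of the ribosomal and cell cycle lists were 0.04 and 0.04.

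Clone 2 was then set against clone 1, to see where the macrophages of the KO tumours differed from each other. Of the 15560 genes, edgeR's test called 0 higher and 0 lower, 205 (1.32%) were higher and 297 (1.91%) lower in clone 2 at an unadjusted p under 0.05, and DESeq2 called 54 (0.347%) and 63 (0.405%). The fitted difference was positive for 47% and negative for 53% of genes. Ly6c2 was at 87.4 and 100 CPM in clone 1, and the difference between clones was -0.11 ± 0.26 on the log2 scale. Both clone contrasts use the same WT libraries, so these levels are given side by side. Other genes stood apart between clones. Dpt was at 20.1 and 20.8 CPM in clone 1, near WT, and 1.87 higher in clone 2 on the log2 scale (adjusted p = 0.181). Fbln2 was at 48.1 and 29.4 CPM in clone 1 and the log2 difference, clone 2 minus clone 1, was -2.50 ± 0.33 (adjusted p = 0.181). Lox was at 6.74 and 3.1 CPM in clone 1, with a log2 fold change of -1.05 ± 0.51 for clone 1 against WT. Hspa1b was at 203 and 261 CPM in clone 1, between the WT and clone 2 libraries, with a difference of -1.71 (adjusted p = 0.281).

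Of the 36 glycolysis and hypoxia genes, 1 had a higher and 35 a lower fitted level in clone 2 than in clone 1, and 7 were lower at an unadjusted p under 0.05. The median difference was -0.49. Adm was at 7.17 and 4.92 CPM in clone 1 against 1.07 and 1.66 in clone 2 (-2.15, adjusted p = 0.334). For the 15 class II genes the median difference was 0.72, all 15 were higher in clone 2, and 4 had an unadjusted p under 0.05. H2-Ab1 was at 994 and 1274 CPM in clone 1. The 18 interferon-gamma GTPases were all higher in clone 2 as well, with 2 at an unadjusted p under 0.05. Yet their median log2 fold change for clone 1 against the same WT libraries was 1.022. For clone 1 against WT it was 2.251 for NK, 2.316 for GIMAP, 1.825 for T cell and 1.013 for type I interferon genes. For these 4 lists the median difference, clone 2 minus clone 1, was 0.389, 0.292, 0.065 and -0.035. Higher levels of these lists were thus not particular to clone 2. Iigp1 was at 320 and 289 CPM in clone 1, between WT and clone 2, with a difference of 0.63 (adjusted p = 1).

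**Figure D4:**
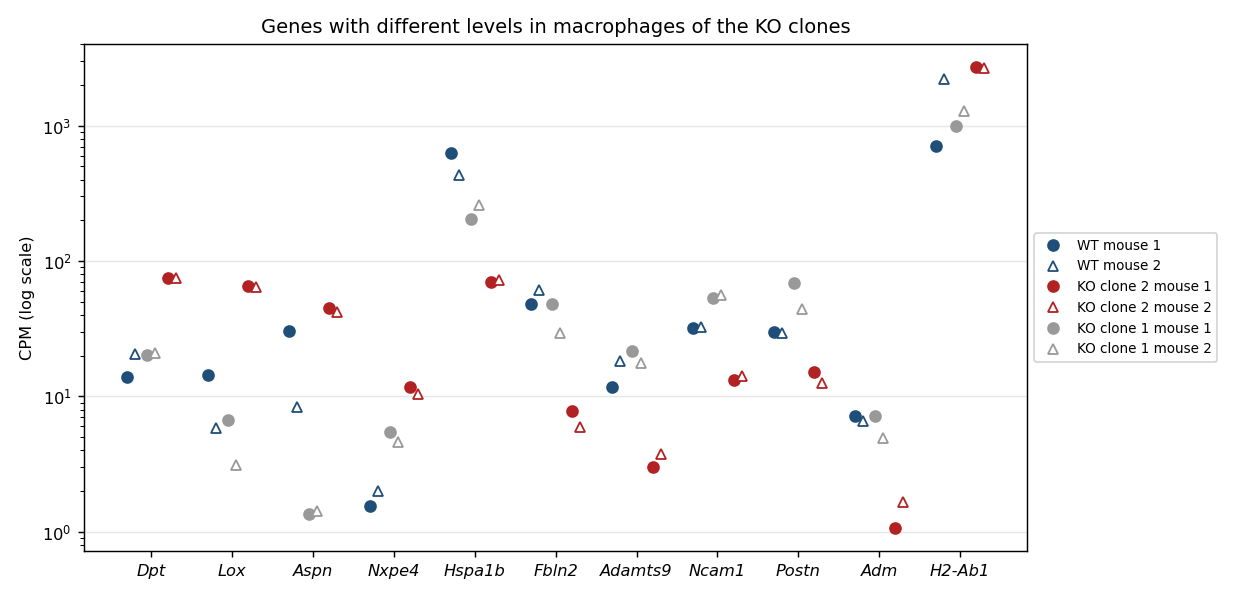
CPM on a log axis of 11 genes in each WT (blue), clone 1 (grey) and clone 2 (red) library. Clone 2 sits apart from the other 4 libraries for Dpt, Lox, Nxpe4, Hspa1b, Fbln2, Adamts9 and Adm, and Ncam1 and Postn lie below WT in clone 2 and above it in clone 1.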

How the data were processed

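RNA from sorted macrophages was sequenced after ribosomal RNA depletion with a TruSeq kit, per the labels' protocols. The values are estimated counts, 1 row a gene symbol, as the authors deposited them, and they are not divided by library size. The submitters' processing notes name Salmon 0.7.2 and mm10 and give neither a role nor an order. No source used here gives the transcript set, the use of strand or how reads were divided between near-identical genes. Of 21760 symbols, 20429 (93.9%) matched GENCODE M21 on GRCm38, the source of gene positions, and 235 had no count.

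The deposited counts, which are whole numbers, went into glmQLFit and glmQLFTest of edgeR 4.0.16 (R 4.3.3) with TMM factors, after filterByExpr (minimum count 10, minimum total 15). The 6 libraries were fitted in 3 groups, which left 3 residual degrees of freedom, and p-values were adjusted by Benjamini-Hochberg over all genes tested. The biological coefficient of variation was 0.302. CPM were computed on TMM-scaled library sizes, and an SE is the absolute log2 fold change divided by the square root of F. Where p-values of DESeq2 1.42.0 are named, its Wald test was used, and limma 3.58.1 gave the voom alternative. The fit was tested on simulated counts of 15302 genes, where 148 calls included 14 of unchanged genes. Libraries of the same group differed beyond sampling noise (chi-square over its degrees of freedom, 80.5 to 860).

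The comparison, its gene lists and its members were chosen with earlier results of these data known. Single genes were taken by a rule: a mean of at least 5 CPM over the 4 libraries, no overlap between the groups, predicted gene models left out, and the 12 smallest p-values in each direction. Up to 4 members per list and direction (any in lists of 10 or fewer) and 15 macrophage genes were added. B2m, Rn45s, Ccr2, Cd4, Cd8a, Cd3d, Cd3e, Gzmb, Ifng, Ncr1, Gbp2, Gbp7, Irgm1, H2-Aa, H2-Eb1, Ciita, Gapdh, Hk2, Hspa8, Hsp90aa1, Dnajb1, Sdhb, Glb1, Srxn1, Cfp and the defining markers of other cell types were named after their values were seen, as were the promoters shown. Motifs were searched in 250 bases before each RefSeq start, for 74.4% of the genes tested. Alternatives were other normalizations, filters and tools, a block for the mouse number, Rn45s removed, each library left out and the compared groups alone.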

Additional observations from a re-analysis of the deposited data

Results flagged for a closer look

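For 11 genes that a list or the rule for single genes names, both clone 2 libraries lay on one side of both WT libraries and both clone 1 libraries on the other. The log2 difference between the clones, clone 2 minus clone 1, did not pass edgeR's test for any of them after Benjamini-Hochberg adjustment over all genes tested. Ncam1, a neural cell adhesion molecule, stood at 13.1 and 14.1 CPM in clone 2, 32 and 32.8 in WT and 53.1 and 56 in clone 1, with a difference of -2.00 (adjusted p = 0.181). Postn, the matrix protein periostin, stood at 15.1 and 12.6 CPM in clone 2, 30 and 29.4 in WT and 69.1 and 44.1 in clone 1, with -2.03 (adjusted p = 0.181). Both were below WT in clone 2 and above it in clone 1. Aspn, the matrix protein asporin, lay above WT in clone 2 and below it in clone 1, at 45.3 and 41.8 CPM in clone 2, 30.4 and 8.39 in WT and 1.36 and 1.43 in clone 1, with 4.96 (adjusted p = 0.181). Col12a1, a collagen chain, stood at 3.1 and 3.61 CPM in clone 2, 6.98 and 6.05 in WT and 10.5 and 10.1 in clone 1, with -1.61 (adjusted p = 0.281). Among receptors, Vldlr, which takes up lipoproteins, stood at 33.1 and 38.6 CPM in clone 2, 64.4 and 52.8 in WT and 66.6 and 89 in clone 1, with -1.12 (adjusted p = 0.546). The T cell genes Il7r and Lef1 stood below WT in clone 2 and above it in clone 1, with differences of -1.36 (adjusted p = 0.559) and -1.18 (adjusted p = 0.94). The other 4 genes differed less. Cfp, the complement factor properdin, stood at 197 and 183 CPM in clone 2, 201 and 211 in WT and 347 and 295 in clone 1, with -0.76 (adjusted p = 0.897). Srxn1, a sulfiredoxin, stood at 49 and 47.6 CPM in clone 2, 56.8 and 54.5 in WT and 72 and 61.1 in clone 1, with -0.46 (adjusted p = 1). Sdhb, a subunit of succinate dehydrogenase, stood at 103 and 103 CPM in clone 2, 89.9 and 90.9 in WT and 81.6 and 89.8 in clone 1, with 0.26 (adjusted p = 1). Glb1, a lysosomal galactosidase, stood at 51.6 and 51.6 CPM in clone 2, 52.8 and 53.9 in WT and 57.2 and 58.4 in clone 1, with -0.16 (adjusted p = 1).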

How the results depend on the processing

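The number of genes called depended on the processing. Against WT, edgeR's test called 1 gene, 9 with RLE size factors, 8 with Rn45s removed, 229 without the filter on low counts, 0 with at least 5 CPM in 2 libraries and 0 with the 2 compared groups alone. DESeq2 called 465 and, on the libraries other than WT mouse 2, an alternative chosen after seeing the data, 732. Leaving out 1 library gave 0 to 6445 calls, with 6445 without WT mouse 1 and 186 without WT mouse 2, where the lone WT library is assumed to vary like the other groups. Leaving out any clone 1 or clone 2 library gave 0. With the replicate block for the mouse number there were 0 calls, and Ly6c2 had an adjusted p of 0.133. Deviations of same-numbered libraries correlated at 0.0499 between WT and clone 2, -0.281 between WT and clone 1 and 0.22 between the clones, and nothing shows that the numbers pair the mice. Clone 2 against clone 1 gave 0 calls, 117 by DESeq2, 53 without the filter, 79 with the 2 groups alone, and 0 to 87 on leaving out 1 library, with 78 without WT mouse 1 and 87 without WT mouse 2. The cause was not tested.

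Of 136 single genes named, 115 kept the sign of their log2 fold change under each alternative. Leaving out WT mouse 2 reversed 18 and leaving out WT mouse 1 reversed 3. On leaving out 1 library the log2 fold change ran from -0.59 to 0.27 for Axl, -1.12 to 0.71 for Bst2, -1.20 to 0.16 for Cd274, -1.14 to 5.05 for Cd3e, -0.79 to 1.68 for Cd74, -0.79 to 0.20 for Cdh5, -0.32 to 0.19 for Csf1r, -0.11 to 0.58 for Dnajb1, -1.07 to 0.52 for Epcam and -0.47 to 1.82 for H2-Eb1. It ran from -3.35 to 1.80 for H2-Q6, -0.12 to 0.69 for Hsp90aa1, -1.10 to 0.84 for Isg15, -0.30 to 0.70 for Mrc1, -1.74 to 0.14 for Nos2, -0.34 to 0.22 for Oaz1, -0.89 to 0.01 for Tgfb1, -0.25 to 0.31 for Tnf, -0.89 to 0.27 for Trem2, -0.51 to 0.46 for Vcan and -0.09 to 0.13 for Xkr8. Other reversals were Xkr8 at -0.01 with voom and -0.04 with the 5 CPM filter, Tnf at -0.05 with that filter, Cd74 at 0.44 with voom, 0.00 without the filter and 0.29 with the block, and Cd3e at -0.14 by DESeq2, -0.09 with the block and -0.01 with the 2 groups alone. Of 41 list medians, 17 changed sign under an alternative and 7 without WT mouse 2. With at least 5 CPM the list of mast cells and basophils had no gene left. With 2 mice a group, changes near 1 on the log2 scale are mostly below what the test recovers.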
